A study of Mus musculus with 4 samples.

Results

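The 10 genes described here, Hspa5, Xbp1, Atf4, Atf6, Ddit3, Trib3, Asns, Herpud1, Sdf2l1 and Creld2, belong to the unfolded protein response and the integrated stress response of mouse liver. They were chosen by symbol, and each of the 10 was found once among the 24138 rows of the table of gene expression. Bulk RNA sequencing had been carried out on liver from 4 mice, male, of the strain C57BL/6J and 18 weeks of age. All 4 animals had been given both the FAT-MASH diet, which is fed to produce metabolic dysfunction-associated steatohepatitis, and resolvin D1 (RvD1), a mediator made from docosahexaenoic acid. They form 1 group, called livers 1 to 4 by the numbers in the labels, and no animals on the diet alone, on vehicle or on a control diet were analysed here. The values therefore give the level of each transcript in treated livers and its spread between animals, and nothing in them measures an effect of the diet or of RvD1.

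The endoplasmic reticulum is the compartment in which secreted and membrane proteins fold, and hepatocytes secrete plasma proteins in bulk. When unfolded proteins accumulate there, the sensors IRE1, PERK and ATF6 are activated: IRE1 splices Xbp1 mRNA into the form that encodes an active transcription factor, PERK phosphorylates the initiation factor eIF2, and ATF6 is cleaved to release a transcription factor. Phosphorylated eIF2, which is also produced by the kinases for amino acid starvation, haem deficiency and viral RNA, lowers general translation while raising that of ATF4, and this common arm is the integrated stress response. IRE1 splicing, PERK phosphorylation, ATF6 cleavage and ATF4 translation take place after transcription and are not measured by a table with 1 value per gene.

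Promoter sequences are shown first for the 5 members in which a searched response element was found. RefSeq windows of 300 bases (GRCm38.p6, 250 bases before to 50 after the annotated transcription start) were matched by symbol for 9 of the 10 members, Atf6 being the exception. Each window was searched on both strands for 4 motifs. They were the endoplasmic reticulum stress element ERSE (CCAAT and CCACG with 9 bases of any kind between them), ERSE-II (ATTGG and CCACG with 1 base between them), the core of the unfolded protein response element (TGACGTGG) and the C/EBP-ATF response element, or CARE (TGATGNAA). In the lines below the matched letters are in capitals, and each sequence is written 5′ to 3′ on the strand of the gene. The 250 bases before the start are given for Hspa5 (chr2:34771840-34772089, plus strand), Creld2 (chr15:88819396-88819645, plus strand), Herpud1 (chr8:94386179-94386428, plus strand) and Asns (chr6:7693210-7693459, minus strand), and 30 bases just after the start for Trib3 (chr2:152344027-152344056, minus strand).
Hspa5: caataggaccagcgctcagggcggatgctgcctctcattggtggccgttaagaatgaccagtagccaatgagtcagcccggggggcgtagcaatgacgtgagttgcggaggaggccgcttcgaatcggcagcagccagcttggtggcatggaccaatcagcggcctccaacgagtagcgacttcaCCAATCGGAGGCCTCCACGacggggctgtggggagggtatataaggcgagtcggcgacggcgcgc
Creld2: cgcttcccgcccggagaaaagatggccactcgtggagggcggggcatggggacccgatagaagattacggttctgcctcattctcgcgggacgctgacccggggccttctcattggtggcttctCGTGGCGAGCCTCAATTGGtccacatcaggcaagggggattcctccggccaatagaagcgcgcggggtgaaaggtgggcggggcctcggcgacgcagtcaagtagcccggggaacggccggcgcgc
Herpud1: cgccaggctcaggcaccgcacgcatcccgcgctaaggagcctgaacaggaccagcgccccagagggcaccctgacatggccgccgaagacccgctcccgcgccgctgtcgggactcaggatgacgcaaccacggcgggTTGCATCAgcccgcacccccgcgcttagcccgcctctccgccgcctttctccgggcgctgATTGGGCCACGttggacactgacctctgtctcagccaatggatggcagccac
Asns: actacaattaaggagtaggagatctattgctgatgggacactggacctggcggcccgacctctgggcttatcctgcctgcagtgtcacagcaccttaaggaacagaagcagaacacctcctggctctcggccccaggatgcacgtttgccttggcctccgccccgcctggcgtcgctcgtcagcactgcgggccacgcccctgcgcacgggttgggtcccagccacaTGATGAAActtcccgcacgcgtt
Trib3: tagctcaggtTTACATCAgccgggcgggga

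An ERSE match was found in 2 members. Counting from the start, with no position 0, it began at -65 on the gene's own strand in Hspa5 and at -126 on the opposite strand in Creld2. Herpud1 held the only ERSE-II match among the members, at -52. CARE matches were found in 3 members, at -23 in Asns, at 15 on the opposite strand in Trib3 and at -112 on the opposite strand in Herpud1. TGACGTGG was in 0 of the 9 windows, and 0 pairs of matches overlapped. Among all 32851 RefSeq windows of this length, ERSE was held by 0.119%, ERSE-II by 0.0365%, TGACGTGG by 0.676% and CARE by 3.97%. The windows of Xbp1, Atf4, Ddit3 and Sdf2l1 held none of these letters. A match of letters describes the window and does not show binding.

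The deposited values were read as FPKM, fragments scaled by transcript length and by the size of the library, a scale on which levels of different genes can be set side by side. All 10 members had a mean of at least 1 FPKM, the level at which a gene was counted as expressed, as did 10541 rows of the table. The depth was put at 18.8 to 20.1 M fragments per library (M, mega), from low values taken as those of 1 fragment. Only values in a chosen window were used, and the window largely sets this figure. Liver 2 stood apart in acute phase transcripts, with Saa1 at 139, 2135, 45.6 and 131 FPKM in livers 1 to 4. Hepatocyte transcripts were abundant, with Ttr at 5394 ± 1006 FPKM and Apoa1 at 12970 ± 1593 FPKM (SD, n = 4). Alb is listed at 0 in every liver and Serpina1a is listed at 0 in livers 3 and 4, so a 0 in this table can be a failed estimate. In bulk tissue, fewer cells of a type and less RNA per cell cannot be told apart.

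The levels of the members spanned about 2 orders of magnitude. The largest step in the order of means was 2.92-fold, from Atf4 to Sdf2l1. It was little larger than the steps of 2.11-fold from Hspa5 to Xbp1 and 2.32-fold from Xbp1 to Atf4. Herpud1, a membrane protein of endoplasmic reticulum-associated degradation, was the most abundant member at 266.9 ± 14.4 FPKM (SD, n = 4), rank 319 among the expressed genes. It was followed by Hspa5 at 213 ± 15.5 FPKM, Xbp1 at 101 ± 30.5 FPKM and Atf4 at 43.6 ± 3.74 FPKM (each SD, n = 4). For these 4 genes, and from Atf4 to Sdf2l1, the lowest liver of a gene lay above the highest liver of the next gene in the order. Sdf2l1 at 14.9 ± 2.88 FPKM, Creld2 at 13.3 ± 3.38 FPKM and Atf6 at 9.60 ± 0.283 FPKM came next (each SD, n = 4). The values of Sdf2l1 and Creld2 overlapped, as did those of Creld2 and Atf6, whereas Sdf2l1 lay above Atf6 in each liver. Ddit3 at 5.85 ± 1.95 FPKM lay below Atf6 in every liver. Ddit3, Trib3 (3.21 ± 1.13 FPKM) and Asns (2.92 ± 1.68 FPKM) overlapped in turn (each SD, n = 4), although Ddit3 exceeded Trib3 in each of the 4 livers.

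**Figure D1:**
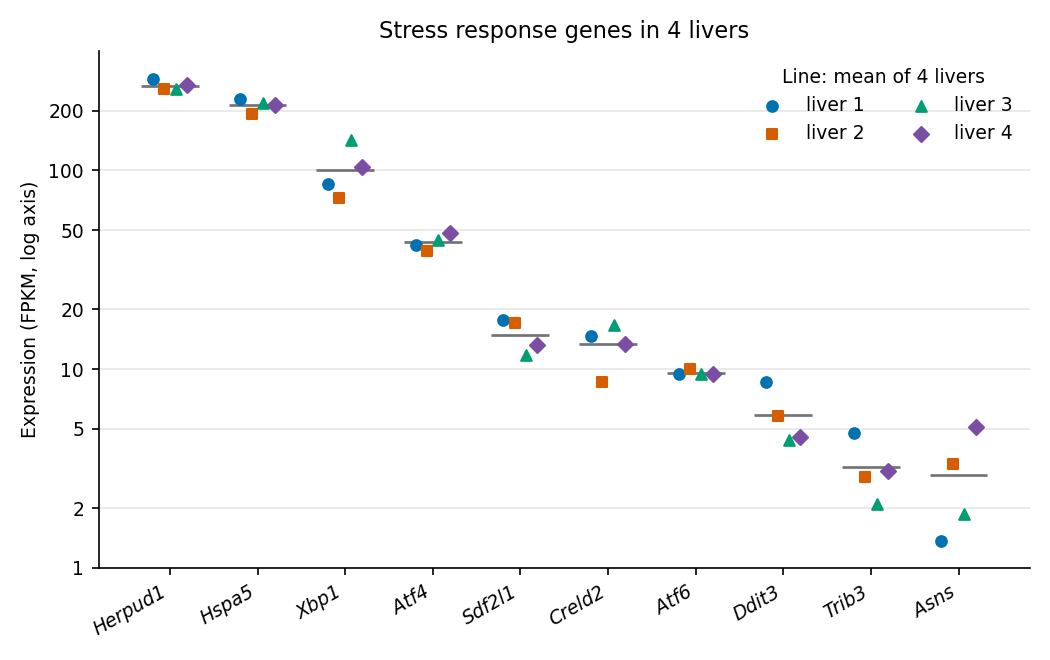
Expression of the 10 genes in FPKM on a log axis, ordered by mean; each symbol is 1 liver and the grey line is the mean of the 4 livers. Herpud1 and Hspa5 lie above 190 FPKM in every liver, Atf6 is nearly the same in all 4, and Asns is at 1.37 FPKM in liver 1 and at 5.11 FPKM in liver 4.

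The order of spread was not that of level. Between animals, the SD on the log2(FPKM + 1) scale was 0.04 for Atf6, 0.08 for Herpud1, 0.11 for Hspa5 and 0.12 for Atf4, all below the median of 0.16 over the expressed genes. It was 0.27 for Sdf2l1, 0.37 for Trib3, 0.38 for both Creld2 and Ddit3, 0.42 for Xbp1 and 0.61 for Asns. Leaving out 1 liver moved several of these SDs by over 1.5 times. Without liver 1 the SD was 0.18 for Ddit3, 0.21 for Trib3 and 0.04 for Herpud1, without liver 2 it was 0.15 for Creld2, 0.06 for Hspa5 and 0.0038 for Atf6, and without liver 3 it was 0.25 for Xbp1. The median over the 10 members was 0.32. The SD of Xbp1, Creld2, Ddit3, Trib3 and Asns was wider than that of 95.5% to 99.1% of the expressed genes. The highest liver exceeded the lowest at least 1.5-fold in these 5 members, against 28.4% of the expressed genes, and Sdf2l1 lay just under that limit at 1.496-fold. Without liver 1 the number was 3 members, against 22.9% of the expressed genes, and the median SD of the members was 0.20, against 0.17 for the expressed genes. The members were selected with earlier results of these data known, so these counts are descriptions.

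**Figure D2:**
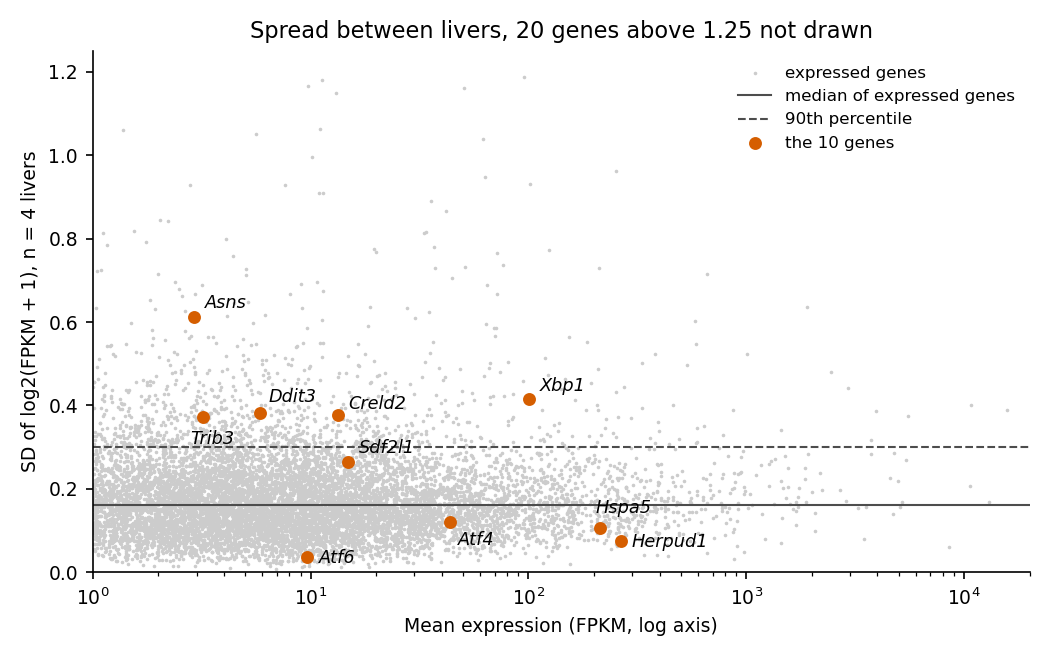
SD of log2(FPKM + 1) between livers (n = 4) against mean expression (log axis) for the expressed genes (grey) and the 10 members (orange); the lines are the median and the 90th percentile of the expressed genes, and 20 genes above the axis limit are not drawn. Xbp1, Creld2, Ddit3, Trib3 and Asns lie above the 90th percentile, while Atf6, Herpud1, Hspa5 and Atf4 lie below the median.

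Among the transcription factors, Atf6, which also acts as a sensor in the endoplasmic reticulum membrane, was at 9.46, 10.02, 9.43 and 9.49 FPKM in livers 1 to 4. Liver 2 was the highest, by 1.06-fold over the next, and the other 3 livers differed by less than 1% of their level. Its spread was lower than that of all but 1.41% of the expressed genes. Atf6 was the only member in which 1 liver stood off from the rest by Dixon's ratio for 4 samples, as 5.64% of the expressed genes had. Atf4, whose product drives the amino acid and stress genes of the integrated stress response, was at 42.0, 39.5, 44.5 and 48.3 FPKM, a 1.22-fold range with liver 2 the lowest. Liver 4 was the highest as deposited, and liver 3 once the libraries were rescaled to equal sums. Xbp1 was at 85.1, 72.7, 143 and 104 FPKM in livers 1 to 4, so that liver 3 exceeded liver 2 by 1.96-fold and the next highest liver by 1.38-fold. Of the 9 hepatocyte markers, Hnf4a (156 FPKM against 93.9 to 118 FPKM), Cps1 and Ass1 were also highest in liver 3, whereas Ttr and Apob were lowest there. The 7 hepatocyte markers above 0 in every liver, which leaves out Alb and Serpina1a, summed to 21805, 20209, 21050 and 25534 FPKM in livers 1 to 4. Xbp1 is also known for its role in plasma cells. Of 10 plasma and B cell markers 7 were in the table and 3 reached a mean of 1 FPKM, the summed level ran from 3.71 to 5.47 FPKM with liver 2 the highest, and Tnfrsf17, a plasma cell receptor, is listed at 0 in each library. The plasma cell genes Jchain, at 0.541, 1.46, 1.79 and 0.700 FPKM in livers 1 to 4, and Mzb1, at 0.313, 0.509, 0.571 and 0.0833 FPKM, were highest in liver 3, as Xbp1 was. Of the other detected markers of this set, Pou2af1 and Cd79b were highest in liver 2, Cd79a in liver 1 and Ms4a1 in liver 4. The part of either marker set in the level of Xbp1 was not tested.

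The chaperone Hspa5 (BiP), the Hsp70 protein of the endoplasmic reticulum lumen and the textbook marker of its stress, was at 229, 192, 219 and 212 FPKM in livers 1 to 4. Liver 1 was the highest and liver 2 the lowest, a 1.19-fold range. Herpud1 was at 287, 256, 257 and 268 FPKM, also with liver 1 the highest, and its range was 1.12-fold. Livers 2 and 3 were nearly equal for Herpud1, and liver 4 became the lowest when libraries were rescaled to equal sums. The deviations of Hspa5 and Herpud1 from their own means were the closest of the 45 pairs of members, at a Euclidean distance of 0.13 over the 4 livers on the log2(FPKM + 1) scale. Such distances are small for genes of small spread whatever their order, and the 6 closest pairs were those among Atf6, Herpud1, Hspa5 and Atf4. Within a liver the ratio of Herpud1 to Hspa5 stayed between 1.17 and 1.33.

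Creld2 and Sdf2l1 encode smaller resident proteins of the endoplasmic reticulum. Creld2, a protein with disulfide isomerase activity, was at 14.6, 8.65, 16.6 and 13.4 FPKM in livers 1 to 4. Like Hspa5 it was lowest in liver 2 and above its own mean in livers 1 and 3, with a wider spread. Liver 2 lay below the other 3, the next lowest being 1.55-fold higher. Sdf2l1, a partner of the DnaJ co-chaperones of BiP, was at 17.6, 17.1, 11.8 and 13.2 FPKM. Here livers 1 and 2 were high and livers 3 and 4 low, with a gap between 17.1 and 13.2 FPKM. The ratio of Sdf2l1 to Creld2 was 1.21, 1.98, 0.710 and 0.986 in livers 1 to 4, a 2.78-fold range within this pair of chaperone-related genes. In liver 2, where Creld2, Xbp1 and Hspa5 were lowest, the summed stellate cell markers were 295 FPKM against 190 to 233 FPKM elsewhere and the summed neutrophil markers 17.7 FPKM against 7.61 to 10.4 FPKM. The 6 stellate markers were all in the table and expressed, as were 2 of the 3 neutrophil markers found. Dcn made up most of the stellate sum, at 194 FPKM in liver 2, and Lrat and Des were highest in liver 1, not in liver 2. Their part in these levels was not tested.

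The products of Ddit3, Trib3 and Asns belong to the output of ATF4. Ddit3 encodes CHOP, a transcription factor linked to stress-induced cell death, and was at 8.61, 5.82, 4.39 and 4.57 FPKM in livers 1 to 4. Liver 1 was the highest by 1.48-fold over liver 2, and the lowest was liver 3 as deposited and liver 4 after rescaling to equal sums. Trib3, a pseudokinase induced by ATF4 and CHOP, was at 4.79, 2.88, 2.11 and 3.07 FPKM. Liver 1 was again the highest, by 1.56-fold over the next, and liver 3 the lowest. Asns, the enzyme that makes asparagine and a classical target of amino acid starvation, was at 1.37, 3.35, 1.86 and 5.11 FPKM. It was lowest in liver 1, where Ddit3 and Trib3 were highest, and highest in liver 4, with a 3.73-fold range, the widest of the members. The ratio of Asns to Trib3 was therefore 0.286 in liver 1 and 1.66 in liver 4, a 5.83-fold range. Relative to Atf4, the level of Ddit3 ran from 0.0946 to 0.205 and that of Asns from 0.0326 to 0.106 between livers.

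At the estimated depth, Asns rested on about 49.97, 117, 65.9 and 175 fragments in livers 1 to 4. These numbers take its longest transcript less 200 bases and depend on the window chosen for the depth. At that depth the counting error was 14.1% in liver 1 and 7.57% in liver 4. Trib3 rested on about 75.2 to 176 fragments and Ddit3 on about 66.01 to 133, with counting errors from 7.54% to 12.3% over both genes. The value of Ddit3 has a further limit, because the table gives it the span chromosome 10, 127290793 to 127311786, which is also the span of Mars, the methionyl-tRNA synthetase gene on the opposite strand. In GENCODE vM21 the exons of Mars cover 68 of the 1713 exonic bases of Ddit3. Whether the counting used strand is not given in the sources used here. Mars was at 20.5, 16.2, 17.7 and 17.7 FPKM, and the ratio of Ddit3 to Mars ran from 0.249 in liver 3 to 0.419 in liver 1.

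**Figure D3:**
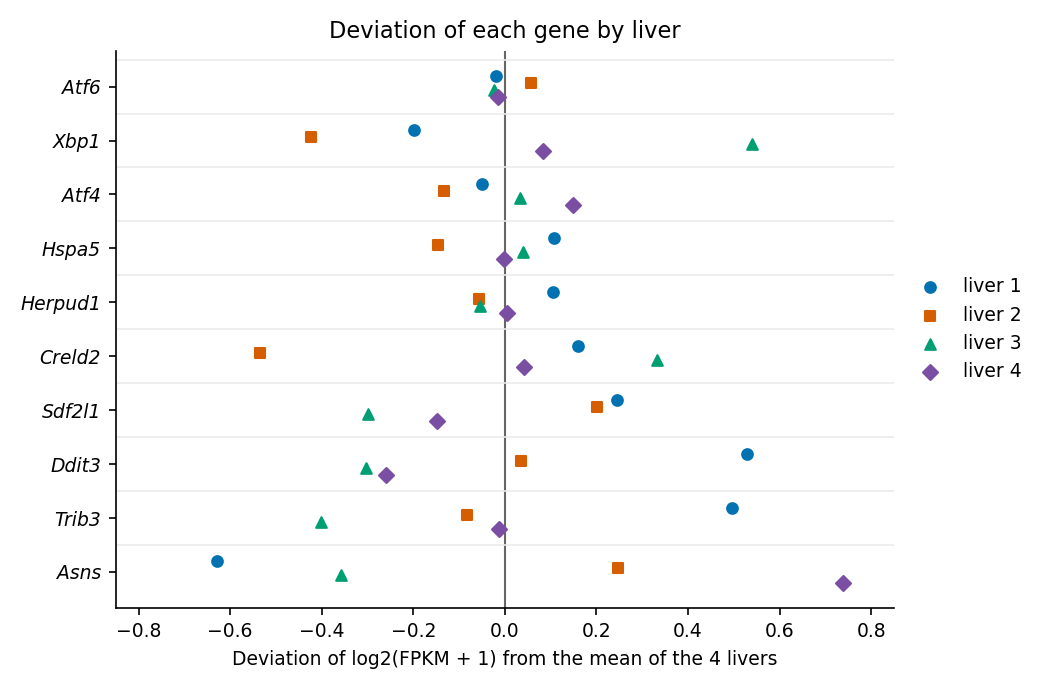
Deviation of log2(FPKM + 1) of each member from its mean over the 4 livers, with 1 symbol per liver; the deviations of a gene sum to 0. Ddit3 and Trib3 are highest in liver 1 and Asns is lowest there, while Xbp1 and Creld2 are lowest in liver 2 and highest in liver 3.

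Counted over the members, liver 1 held the highest value of 5 of the 10 (Hspa5, Herpud1, Sdf2l1, Ddit3 and Trib3), where 17.9% of the expressed genes were highest. Liver 2 held the highest value of 1 member (22.0% of the expressed genes), liver 3 of 2 (26.8%) and liver 4 of 2 (33.3%). The lowest value lay in liver 2 for 5 members (Hspa5, Xbp1, Atf4, Herpud1 and Creld2), against 29.9% of the expressed genes. It lay in liver 1 for 1 member (20.7%), in liver 3 for 4 (31.4%) and in liver 4 for 0 (18.1%). With the libraries rescaled to equal sums, 4 members were lowest in liver 2 (24.2% of the expressed genes), 2 in liver 3 (25.3%) and 3 in liver 4 (32.995%). The highest value then lay in liver 1 for 5 members (21.8%), in liver 3 for 3 (34.2%) and in liver 4 for 1 (15.6%). Over livers 1 to 4 the median deviation of the members was 0.11, -0.07, -0.04 and 0.00. As deposited, the order of the 4 livers was the same in 1 of the 45 pairs of members, Ddit3 and Sdf2l1. It was exactly opposite in 1, Atf6 and Creld2. Neither match held under every scaling. After rescaling to equal sums Ddit3 was lowest in liver 4 and Sdf2l1 in liver 3. Under each other scaling Atf6 was lowest in liver 4, whereas Creld2 was highest in liver 3. With 4 livers, some pairs can match in order without being related. The highest liver was the same under all 4 scalings compared for 9 members (the exception being Atf4) and the lowest for 7 (the exceptions being Atf6, Ddit3 and Herpud1).

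Genes whose 4 values lay nearest to a member were sought among 6538 rows averaging 5 FPKM or more, by Euclidean distance between deviations over the 4 livers. Among the nearest to Hspa5 were Ddost, a subunit of the oligosaccharyltransferase of the endoplasmic reticulum, at 52.1, 44.6, 50.5 and 48.4 FPKM, and Hax1 and 0610040J01Rik, with distances from 0.026 to 0.029. As 156 of the 6538 rows lay within 0.1 of Hspa5, this closeness is not particular to the genes named. The nearest to Ddit3 was Hspa1b, a stress-inducible cytosolic Hsp70 gene, at 8.22, 6.40, 4.16 and 4.50 FPKM (distance 0.15), followed by Mien1, 2310010J17Rik and Hmgcs1. Trib3 had Ggct, Stbd1, Lars2 and Anxa2 as its nearest genes, at distances from 0.13 to 0.19. Asns had Cda, 1810044D09Rik, Erdr1 and Mmp12, at distances from 0.28 to 0.42, and 1 gene within 0.3. Hspa1b has near-identical copies in the genome, so its value is uncertain.

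Other genes of the pathway were placed in 5 lists by role. With the members they comprised 78 genes in the table, of which 71 had a mean of at least 1 FPKM. The median SD of log2(FPKM + 1) was 0.28 for the 21 expressed targets of ATF4 and CHOP, 0.17 for the 12 sensors and regulators of eIF2, 0.15 for the 18 chaperones and folding enzymes, 0.14 for the 6 transcription factors and 0.10 for the 14 genes of endoplasmic reticulum-associated degradation. The median of all expressed genes was 0.16. A range of at least 1.5-fold was found in 11 of the 21 ATF4 and CHOP targets, 5 of the 12 sensors, 3 of the 18 chaperones, 2 of the 14 degradation genes and 2 of the 6 transcription factors, beside the 28.4% of all expressed genes given above. Without the members the numbers were 8 of 18 targets, 5 of 11 sensors, 2 of 15 chaperones, 2 of 13 degradation genes and 1 of 4 transcription factors.

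**Figure D4:**
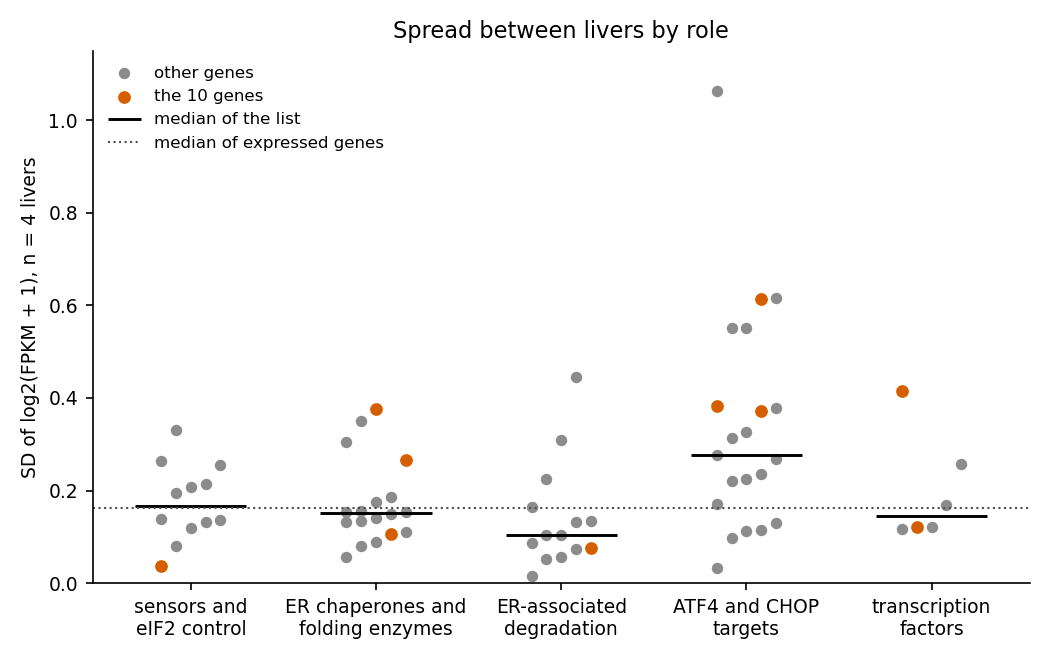
SD of log2(FPKM + 1) over the 4 livers for the expressed genes of the 5 role lists; each point is 1 gene, the members are orange, the black line is the median of the list and the dotted line the median of all expressed genes (0.16). The ATF4 and CHOP targets have the highest median (0.28) and the degradation genes the lowest (0.10).

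Among the sensors and regulators of eIF2, Eif2ak1, the haem-regulated eIF2 kinase, had the highest mean at 24.6 ± 2.42 FPKM, on a span shared by 3 rows of the table, ahead of the phosphatase subunit Ppp1r15b at 19.2 ± 1.91 FPKM and the protease Mbtps1, which cleaves ATF6, at 17.0 ± 1.02 FPKM (each SD, n = 4). The widest SDs belonged to Atf6b, Eif2ak3 and Ern1. Atf6b, a relative of Atf6, was at 7.201, 5.44, 10.3 and 7.22 FPKM in livers 1 to 4, highest in liver 3 and lowest in liver 2, as Xbp1 was. Eif2ak3, which encodes PERK, was at 6.29, 4.34, 3.73 and 4.49 FPKM, highest in liver 1 and lowest in liver 3, as Ddit3 and Trib3 were in the deposited values. Ern1, which encodes IRE1 alpha, was at 3.36, 3.37, 5.29 and 3.54 FPKM, so that liver 3 alone was high.

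The chaperones and folding enzymes were the most abundant group. P4hb, a protein disulfide isomerase, had 837 ± 90.2 FPKM, the lectin chaperone Calr 331 ± 35.2 FPKM and Hsp90b1, the Hsp90 of the endoplasmic reticulum, 229.5 ± 24.9 FPKM (each SD, n = 4). In liver 1, 17 of the 18 genes lay above their own mean over the livers (median deviation 0.16, log2 scale), against 47.2% of the expressed genes above theirs. Sil1 was the exception, named after its value was seen. This count was chosen after the values were seen, and without the 3 members in the list it was 14 of 15. In liver 1 the summed erythroid markers were 261 FPKM against 119 to 170 FPKM elsewhere, with Hba-a1 highest there and Alas2 highest in liver 3. The summed endothelial markers were lowest in liver 1, at 39.2 FPKM against 43.9 to 49.6 FPKM. Clec4g, at 26.7 FPKM in liver 1, made up most of this sum. Clec4g, Kdr and Cdh5 were lowest in liver 1, whereas Pecam1 and Stab2 were lowest in liver 3. The part of either marker set in these levels was not tested. Liver 1 held the highest value of 12 of the 18, against 17.9% of the expressed genes, or of 13 with the libraries rescaled to equal sums, against 21.8%. The number above the mean in liver 1 was also 17 under each other scaling, and between 15 and 16 when 1 of livers 2 to 4 was left out. After Creld2, the widest SDs were those of Hyou1 and Manf. Hyou1, a large Hsp70-related chaperone, was at 23.3, 15.05, 25.7 and 16.9 FPKM, and Manf, a secreted factor that resides in the endoplasmic reticulum, at 30.6, 19.9, 27.99 and 20.3 FPKM. Both were high in livers 1 and 3 and low in livers 2 and 4, with no overlap between these pairs of livers.

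**Figure D5:**
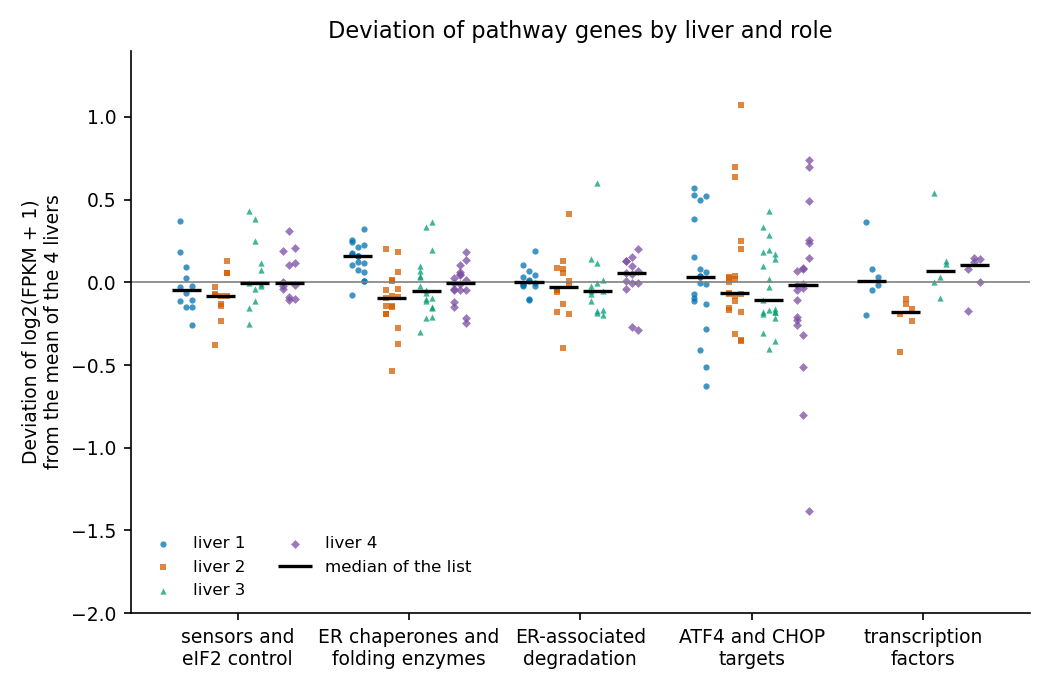
Deviation of log2(FPKM + 1) from the gene's mean over the 4 livers for the expressed genes of the 5 role lists, with 1 point per gene and liver and a black line at the median. The chaperones and folding enzymes lie above 0 in liver 1 for 17 of 18 genes (median 0.16), a count chosen after the values were seen, whereas the ATF4 and CHOP targets spread in both directions in every liver.

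Endoplasmic reticulum-associated degradation returns misfolded proteins to the cytosol for the proteasome. Besides Herpud1, the lectin Os9 was among its abundant genes, at 74.6 ± 6.95 FPKM (SD, n = 4). Syvn1, the ubiquitin ligase HRD1, had the widest SD, at 22.3, 15.8, 32.6 and 17.4 FPKM in livers 1 to 4. It was highest in liver 3 and lowest in liver 2, as Xbp1, Creld2 and Atf6b were. Os9, Hyou1, Atf5 and further genes of the lists also had these extremes. Of the expressed genes, 26.8% were highest in liver 3 and 29.9% lowest in liver 2. The span given for Syvn1 is shared by 3 rows of the table. Derl3 was at 1.94, 2.79, 1.53 and 1.33 FPKM, and Vimp, also called Selenos, was near 52 FPKM in livers 1 and 4 and near 39 FPKM in livers 2 and 3 (51.7, 39.5, 39.4 and 52.3 FPKM).

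Of the other transcription factors, Creb3l3, a liver-enriched factor anchored in the endoplasmic reticulum membrane, had 128 ± 14.6 FPKM (SD, n = 4), more than Xbp1, but the ranges of these genes overlapped. Creb3l2 was at 3.97, 2.38, 2.86 and 2.43 FPKM in livers 1 to 4. All 6 genes of this list, Xbp1 and Atf4 included, were lowest in liver 2 as deposited and 5 under each other scaling, where Creb3l2 was lowest in liver 4. The median deviation of the list in liver 2 was -0.18, and 29.9% of the expressed genes were lowest there as deposited and 24.2% to 29.8% under the other scalings.

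The ATF4 and CHOP targets had the highest median SD of the 5 lists, 0.25 without the members, and differed in both directions. Their share with a 1.5-fold range, without the members, was 44.4%, against 45.5% of the sensors. The most abundant were Cebpb, a C/EBP family transcription factor, at 185 ± 71.3 FPKM, Atf5 at 154 ± 22.4 FPKM and Shmt2, the mitochondrial serine hydroxymethyltransferase, at 133 ± 12.5 FPKM (each SD, n = 4). The span of Atf5 is shared by 3 rows of the table and that of Shmt2 by 2. The widest SDs were those of Gdf15, Ddit4 and Asns. Gdf15, a secreted stress hormone, was at 13.5, 20.2, 7.68 and 2.86 FPKM in livers 1 to 4, so that liver 2 exceeded liver 4 by 7.05-fold. Ddit4, an inhibitor of mTORC1 signalling, was at 6.13, 9.93, 5.82 and 2.86 FPKM, likewise highest in liver 2 and lowest in liver 4, the liver in which Asns was highest. Cebpb was at 132, 273, 213 and 123 FPKM, with liver 2 the highest, the liver that stood apart in Saa1. Fgf21, a hepatokine that is a target of ATF4 and of PPAR alpha and was named after its values were seen, was at 6.12, 5.61, 8.61 and 4.73 FPKM. Of the 28 genes of this list 7 had a mean below 1 FPKM, among them Phgdh, Slc7a11 and Mthfd2, which also act in serine, cystine and folate metabolism and were named outside the rule for named genes.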

How the data were processed

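Poly(A)-enriched RNA of 4 livers of 1 group had been sequenced, per the labels. FastQC 0.10.1, Trim Galore 0.6.3, cutadapt, STAR 2.7.6a and Cufflinks 2.2.1, with the build mm10, are named in the submitters' processing notes. The header gives no unit, and the deposited values were read as FPKM, which Cufflinks writes. They are not whole numbers and sum to between 516816 and 570681 per liver. The annotation and strand setting are not given in the sources used here. Columns were matched by the sample descriptions, and 0 were left unmatched.

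Starts were raised by 1, which made 52.0% of 22565 symbols equal the RefSeq start (GRCm38.p6), against 3.00% as deposited. Values were analysed as log2(FPKM + 1) with Python 3.11.15 and pandas 2.3.3, a scale that understates differences of low genes. The depth estimate used genes with 1 GENCODE vM21 transcript over 800 bases and was taken as the median product of FPKM and length less 200 between 25 and 75. This window surrounds the estimate, and values spread evenly over it would give nearly the same depth. Depths, fragment numbers and counting errors therefore depend on the window and are approximate. Counting errors cover counting only. No p-value was computed, because 1 group leaves no groups to compare, and single livers that stood off were marked by Dixon's ratio. The labels do not say that the livers came from separate litters or cages. The members and lists were chosen with earlier results of these data known. Named genes are the members, the 3 of the highest mean and the 3 of the widest SD in each list, and the 4 nearest genes of 4 members; Fgf21, Sil1, Phgdh, Slc7a11 and Mthfd2 were named outside it, as were genes of the closing section. Some genes that this rule names are not reported here. Procedures were tested on simulated data. Alternatives were other pseudocounts, minimums and scalings, and leaving out each liver. The markers of 10 cell types were also listed. Macrophage markers summed to between 147 and 198 FPKM, endothelial to between 39.2 and 49.6, cholangiocyte to between 17.7 and 22.2, T and NK cell to between 1.08 and 3.39, erythroid to between 119 and 261, and hepatocyte, Serpina1a included, to between 21050 and 25534 FPKM. Of 5 pancreatic acinar markers 4 are listed at 0 in all livers.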

Additional observations from a re-analysis of the deposited data

Results flagged for a closer look

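For each gene, the distance of the highest or lowest liver from its neighbour, as a share of the whole range, was compared with Dixon's 95% critical value for 4 samples. Chance passes about 1 in 20 groups, and 5.64% of the expressed genes passed. Of the 71 expressed members and pathway genes 7 passed. Atf6 was the only member among them, with a ratio of 0.907 and liver 2 at 10.02 FPKM against 9.43 to 9.49 FPKM, a difference that is small in absolute terms. Ern1 (ratio 0.905) and Wars (0.849; 9.45 FPKM against 6.43 to 6.89 FPKM) were high in liver 3. Edem1 (0.851) was 29.6 FPKM in liver 2 against 27.1 to 27.5 FPKM. Eif2ak2 (0.870), the eIF2 kinase activated by double-stranded RNA, was 10.1 FPKM in liver 4 against 7.16 to 7.53 FPKM. Nupr1 (0.953) was 7.16 FPKM in liver 1 against 3.75 to 3.91 FPKM. Psat1 (0.938), an enzyme of serine synthesis, was 2.16 FPKM in liver 4 against 0.982 to 1.06 FPKM. Outside the pathway, Saa1 (0.955), Saa2 (0.969) and Lcn2 (0.911) were high in liver 2, and Apoa1 (0.884) was high in liver 4. No cause was tested for any of these values.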

How the results depend on the processing

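Of the alternatives to the summary values, 231 stayed close to the reported value and 23 moved, by over 1.5 times for a count or SD or by over 0.1 for a deviation. Of those to the means and SDs of single members, 208 stayed close and 32 moved (a mean by over 1 SD). Many entries could not move. The mean of a gene does not depend on the pseudocount, and neither its mean nor its SD depends on the minimum. Nor do the highest and lowest livers depend on the pseudocount. Those that moved include the mean of every member under both rescalings to equal sums, a change of unit. The tallies therefore do not measure how stable the results are. A pseudocount of 5 lowered the median SD of the members to 0.20, while that of the expressed genes fell to 0.11. The range was then taken with 5 added to both values, whereas the reported range adds nothing. In that form 3 members had a range of 1.5-fold, against 4.53% of the expressed genes. A minimum of 5 FPKM removed Trib3 and Asns. It gave a median SD of 0.19 and 3 members with the 1.5-fold range (expressed genes 0.16 and 18.1%). There were then 0 members lowest in liver 1, 1 highest in liver 4 and 2 overlapping neighbours in the order of levels. Median-ratio scaling put 1 member lowest in liver 4. Rescaling to equal sums, with or without the 100 highest genes, put 4 members lowest in liver 2, 2 in liver 3 and 3 in liver 4. It put 3 members highest in liver 3 and 1 in liver 4. Those scalings shifted a library by at most 0.10 on the log2 scale and changed the unit of the levels. Leaving out 1 liver gave a median SD from 0.20 to 0.36 and from 3 to 5 members with the 1.5-fold range, beside 16.4% to 22.9% of the expressed genes. It gave from 1 to 3 members highest in liver 2, from 3 to 4 highest in liver 4, from 1 to 3 lowest in liver 1 and from 0 to 2 lowest in liver 4. Without Ddit3, an alternative chosen after seeing the data, the median SD was 0.27 and 4 of 9 members had the range. No paired analysis was possible because there is 1 group. At an estimated 18.8 to 20.1 M fragments, genes near 1 FPKM rest on few fragments.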

Other observations

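Genes described here were chosen after their values were seen. Of the 21 expressed genes of the ATF4 and CHOP list, 7 were highest in liver 4 as deposited, a share equal to the 33.3% of all expressed genes, and 7 were lowest there, against 18.1%. With the libraries rescaled to equal sums 4 were highest there, against 15.6% of the expressed genes, and 11 lowest, against 32.995%. Among the 7, besides Asns, Chac1, a glutathione-degrading enzyme, was at 2.11, 2.47, 3.99 and 6.21 FPKM in livers 1 to 4, and Cebpg, a partner of ATF4, at 10.8, 15.5, 11.7 and 16.1 FPKM, though liver 2 was the highest for Cebpg with the libraries rescaled to equal sums. Sesn2, a stress-induced inhibitor of mTORC1 signalling, was lowest there, at 4.03, 2.94, 2.42 and 2.29 FPKM, and was highest in liver 1, as Ddit3 and Trib3 were. The ATF4 targets Slc3a2, an amino acid transporter subunit, and Atf3, a transcription factor, were at 11.8, 11.7, 11.3 and 11.2 FPKM and at 2.30, 1.97, 1.75 and 1.87 FPKM, with 1.05-fold and 1.31-fold ranges. The aminoacyl-tRNA synthetases Aars and Nars were at 48.4 ± 7.45 and 43.0 ± 3.37 FPKM (SD, n = 4), with 1.42-fold and 1.201-fold ranges. Edem3, a mannosidase-like protein of endoplasmic reticulum-associated degradation, had the narrowest SD of the pathway lists, at 6.41, 6.55, 6.60 and 6.49 FPKM.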
